A study of Mus musculus with 4 samples.

Results

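The interferon-stimulated antiviral genes are a set of 38 mouse genes chosen by symbol, covering nucleic acid sensors, transcription factors, the OAS and IFIT families, ISG15 conjugation, PARP enzymes and direct antiviral effectors. All 38 were found among the 54532 Ensembl gene IDs of the deposited count table, and all 38 passed the filter on low counts. They were measured by RNA sequencing of primary mouse embryonic fibroblasts (MEFs), cells grown out of minced embryos, with 1 library for each of 4 genotypes. The double null lacked both genes (Trp53-/-; Zfp871-/-), Trp53-/- cells lacked the tumour suppressor p53, Zfp871-/- cells lacked the zinc finger protein Zfp871, and WT cells carried both genes.

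The strain label was C57BL/6 throughout, the embryos were taken at 12.5 to 13.5 days post-coitum, and the cultures were growing exponentially at passage 4. The series' design text has double-null, Trp53-/- and WT cells arise from crosses of mice heterozygous for both genes, and Zfp871-/- and WT cells from crosses of mice heterozygous for Zfp871. The sources used here do not say which cross gave the sequenced WT cells, how either allele was made or whether embryos were pooled. No interferon, virus or other agent is named in the labels of any group. With 1 library a genotype, each pair below compares 2 libraries, and a difference between them cannot be told apart from a difference between the cultures or embryos.

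Interferons are secreted proteins that warn cells of viral infection. Type I interferon binds the receptor Ifnar1/Ifnar2, the kinases Jak1 and Tyk2 phosphorylate STAT proteins, Stat2 among them, and a complex that includes Stat2 and Irf9 binds interferon-stimulated response elements in promoters. The genes switched on in this way sense foreign nucleic acid, degrade or sequester viral RNA, and block the assembly or release of virus. Fibroblasts are a classical cell type for such responses, and many of these genes have a basal level without added interferon.

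The response element is built on a repeat of GAAA, and the repeats found in these promoters are shown first. RefSeq promoter entries on GRCm38.p6, the build called mm10, matched 29 of the 38 members. The 250 bases before each start site were searched on both strands for GAAA, 2 bases of any kind, GAAA. The repeat was present for 10 of the 29 members (34.5%), against 936 of 27025 genes of the table (3.46%). Each window below has 56 bases, runs 5′ to 3′ on the strand of the gene, ends before the start site and has the repeat in capitals.
Isg15, chr4:156200849-156200904, minus strand: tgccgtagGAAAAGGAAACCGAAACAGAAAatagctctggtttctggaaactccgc
Oas3, chr5:120777687-120777742, minus strand: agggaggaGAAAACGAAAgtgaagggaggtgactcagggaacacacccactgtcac
Oas1a, chr5:120907526-120907581, minus strand: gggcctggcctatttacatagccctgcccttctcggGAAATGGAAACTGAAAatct
Trim30a, chr7:104465194-104465249, minus strand: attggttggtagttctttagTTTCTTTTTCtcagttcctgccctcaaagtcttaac
Bst2, chr8:71537555-71537610, minus strand: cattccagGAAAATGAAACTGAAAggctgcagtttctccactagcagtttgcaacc
Stat2, chr10:128270268-128270323, plus strand: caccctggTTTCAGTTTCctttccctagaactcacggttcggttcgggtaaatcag
Rsad2, chr12:26456525-26456580, minus strand: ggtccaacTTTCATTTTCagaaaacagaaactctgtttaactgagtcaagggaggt
Ifit3, chr19:34583365-34583420, plus strand: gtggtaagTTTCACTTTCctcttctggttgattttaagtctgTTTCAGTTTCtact
Ifit3b, chr19:34607761-34607816, plus strand: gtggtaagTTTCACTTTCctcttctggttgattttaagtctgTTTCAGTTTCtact
Ifit1, chr19:34640777-34640832, plus strand: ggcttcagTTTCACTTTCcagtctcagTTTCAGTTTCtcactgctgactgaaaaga

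The windows of Ifit3 and its neighbour Ifit3b were identical at 56 of 56 bases. Isg15 held 3 overlapping repeats, the first starting 78 bases before the start site, and Oas1a held 2, starting 20 and 14 bases before it. Bst2, Ifit1, Ifit3 and Ifit3b also held 2 each. A shorter motif bound by STAT dimers, TTC, 3 bases of any kind, GAA, was found for 5 of the 29 members (17.2%), against 2197 of the 27025 genes (8.13%). The 5 were Oas1a, Isg20, Bst2, Eif2ak2 and Ifit2, and only the match of Bst2 overlapped a GAAA repeat. Of the 10 members with the repeat, 9 rose with Trp53 loss by the test described next, and so did 10 of the 19 matched members without it in this window. By that test 667 of 13306 genes rose (5.01%). The share that rose among all genes with the repeat was not computed, and a link between repeat and rise was not tested. A match is a description of the letters, and no match says only that they are not in these 250 bases.

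The libraries held 22324599 counts for the double null, 21004078 for Trp53-/-, 19974054 for Zfp871-/- and 19303167 for WT. Trp53 had 1382 counts in the double null, 1233 in Trp53-/-, 2413 in Zfp871-/- and 2383 in WT, and Zfp871 had 307 in the double null, 784 in Trp53-/-, 327 in Zfp871-/- and 660 in WT. Each targeted gene was reduced where the label says null, though reads remained. Fibroblast markers were high in all libraries by their summed CPM (counts scaled to library size, here also for composition) over 9 genes. It was 30000 in the double null, 33000 in Trp53-/-, 43400 in Zfp871-/- and 42300 in WT, so lower in both libraries without Trp53. Single markers were mixed. Col1a1, the largest part of the sum, Fn1, Col3a1 and Vim were lower in both libraries without Trp53. Pdgfra and Thy1 were higher in both, and the libraries overlapped for Col1a2, Pdgfrb and Dcn. All 19 macrophage markers rose with Trp53 loss. Their summed CPM was 1120 in the double null, 1260 in Trp53-/-, 102 in Zfp871-/- and 88 in WT, and none was at 0 in any library. In bulk RNA, more cells of a type and more RNA per cell cannot be told apart.

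The members took 0.182% of all counts in the double null, 0.228% in Trp53-/-, 0.0716% in Zfp871-/- and 0.0675% in WT. Their summed CPM was 1750 in the double null, 2190 in Trp53-/-, 760 in Zfp871-/- and 692 in WT. Per gene length, on the FPKM values deposited by the authors (read fragments scaled to gene length and library size), the median member stood at 9.49 in the double null, 13.1 in Trp53-/-, 2.72 in Zfp871-/- and 1.94 in WT. The libraries without Trp53 were thus high and those with it low. Bst2, a membrane tether that holds budding virus on the cell, was the most abundant member by mean FPKM, at 192 in the double null, 250 in Trp53-/-, 60.0 in Zfp871-/- and 67.4 in WT. Isg15, the ubiquitin-like modifier, came next with 166 FPKM in the double null, 224 in Trp53-/-, 27.2 in Zfp871-/- and 24.5 in WT, and then Ifi27 with 21.9 in the double null, 23.1 in Trp53-/-, 27.4 in Zfp871-/- and 37.9 in WT. The least abundant were Mx1, with 0.0982 to 0.926 FPKM, Oas3, with 0.0224 to 1.49, and Herc6, with 0.366 to 1.12. Bst2 and Isg15 lay well apart from the other members in both libraries without Trp53, whereas in WT Ifi27 ranked above Isg15.

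**Figure D1:**
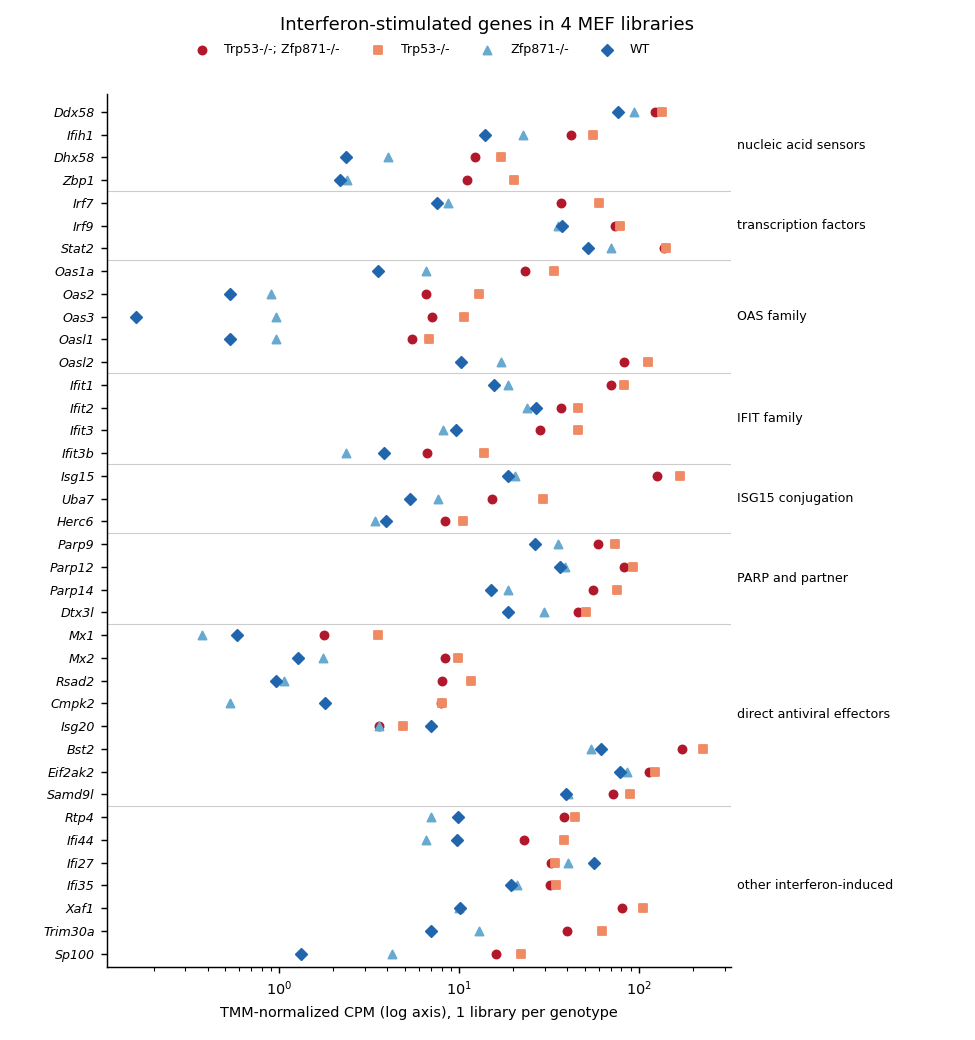
Normalized CPM (log axis) of the 38 members in the double-null, Trp53-/-, Zfp871-/- and WT libraries, 1 point a library, grouped by role. For 36 members both libraries without Trp53 lie to the right of both with it, Ifi27 lies the other way round and the libraries overlap for Isg20.

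The first question was how the members differed with loss of Trp53. Of the 38 members, 26 rose, 0 fell and 12 were not called, in a fit of both genotypes (an additive edgeR quasi-likelihood model over 13306 genes, Benjamini-Hochberg adjusted p under 0.05). Of all 13306 genes, 667 rose (5.01%) and 574 fell (4.31%) by the same test. At an unadjusted p under 0.05 there were 37 members, beside 4125 of all 13306 genes. Of the 37, Ifi27 alone was in the downward direction. DESeq2 called 0 members down, against 796 of all genes, and limma-voom 0, against 676. The rises of the 26 spanned 1.01 to 3.67 on the log2 scale, and the median of all 38 members was 1.99, against 0.00 for all genes tested. Oas2, Oas3, Oasl1 and Mx1 were under 1 CPM in both libraries with Trp53 and passed the filter only through those without it. Of the 32 members with a CPM of at least 1 in every library, 21 rose and 0 fell, with a median of 1.75. Both libraries without Trp53 lay above both with it for 36 members, against 32.7% of all genes, and below both for 1 member, against 31.7% of all genes. Macrophage markers moved with this result, at a median log2 change of 3.83 for 19 of 19 markers, and their part in it was not tested. Lymphocyte markers had a summed CPM of at most 0.691. Of the 5 plasmacytoid dendritic cell markers, only 2 passed the filter, Tcf4 and Cox6a2, and 0 of these 2 were called. The others were not tested, as Siglech and Klk1 had 0 counts in each library and Ccr9 at most 3. Tcf4, also made by other cells, had 2710 to 4879 counts. Cox6a2 had 23 counts in the double null, 23 in Trp53-/-, 6 in Zfp871-/- and 10 in WT.

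The error in this fit is the difference between the 2 effects of Trp53 loss, seen with and without Zfp871, and has 1 degree of freedom, so a member whose effect differed in size between backgrounds was harder to call. In fits of Trp53 alone with 1 library left out, the count of members that rose moved widely, and so did that of all genes. Without the Trp53-/- library 0 of 34 members tested rose (0.0155% of all genes tested), and without the double null 3 of 34 did, Irf7, Isg15 and Xaf1 (0.178%). Without Zfp871-/- 36 members rose (19% of all genes tested), as did 36 without WT (12.1%).

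The pair of libraries that carry Zfp871 and the pair that lack it share no library, so each gave its own value. In the double null against Zfp871-/-, a ratio of 2-fold or more was reached by 26 members upward (5.51% of all genes) and 0 downward (6.33%), with a median log2 ratio of 1.65. In Trp53-/- against WT, 32 members were 2-fold or more higher (8.9% of all genes) and 0 were lower by as much (8.88%), with a median of 2.20. Log2 ratios ran from -0.32 to 3.68 in the double null against Zfp871-/- and from -0.71 to 5.39 in Trp53-/- against WT. The order of the members was alike in the 2 pairs, with a Spearman correlation of 0.84 across the 38 genes, beside 0.66 across all genes tested, given as a description because genes are not replicates. In the double null against WT, 29 members were 2-fold or more higher (8.79% of all genes) and 0 were lower by as much (9.23%). The median there was 1.57, and this pair shares libraries with both others.

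**Figure D2:**
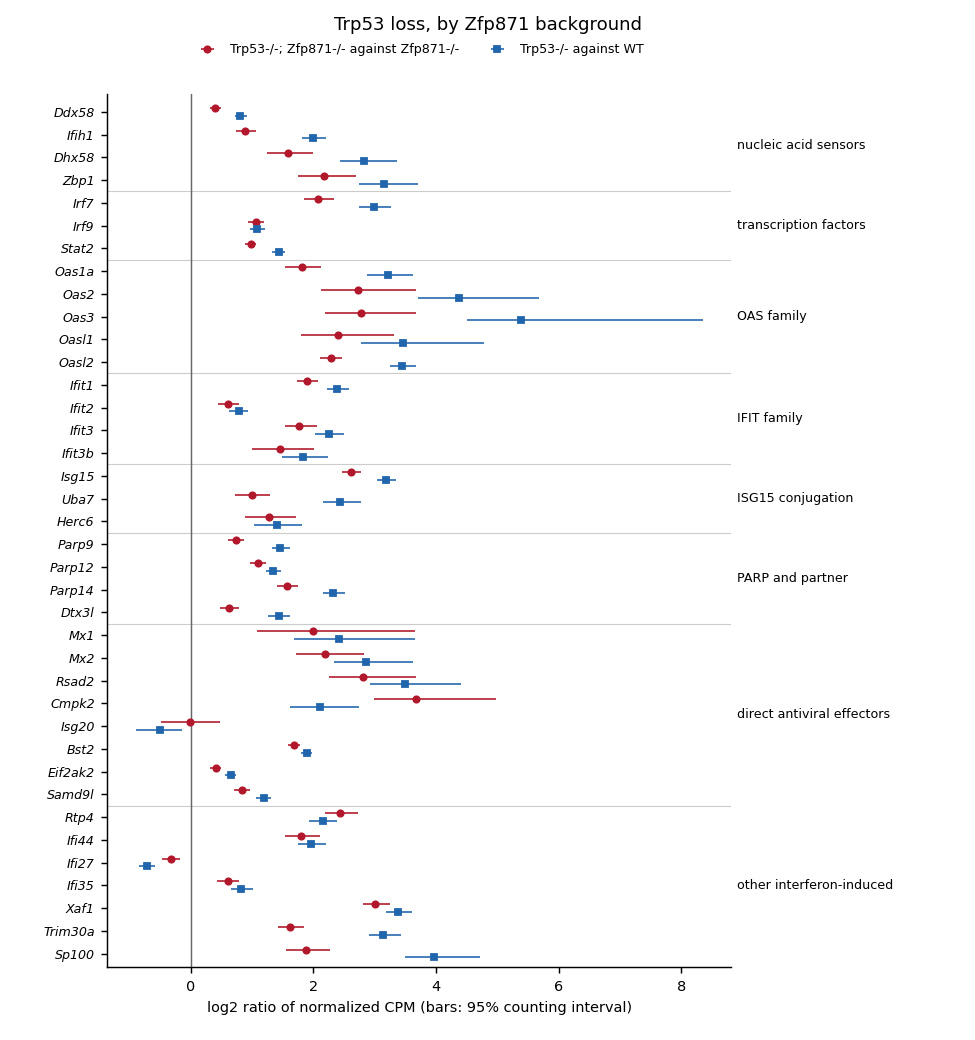
Log2 ratio of normalized CPM for Trp53 loss in each member, in the double null against Zfp871-/- (circles) and in Trp53-/- against WT (squares). Bars are 95% Clopper-Pearson intervals of the 2 counts and cover counting error only. Oas3 reaches 5.39 in Trp53-/- against WT on 3 WT counts, and Isg20 and Ifi27 lie at or left of 0 in both pairs.

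Among the 4 nucleic acid sensors, 2 rose. Zbp1, which recognizes nucleic acid in the Z form, had 257 counts in the double null, 438 in Trp53-/-, 45 in Zfp871-/- and 41 in WT. Both libraries without Trp53 stood far above both with it, and the log2 rise was 2.71 ± 0.335 (SE, adjusted p = 0.0275, edgeR). Dhx58, or LGP2, which regulates the RIG-I-like helicases, rose by 2.22 ± 0.385. The helicases that bind viral RNA and signal were not called. Ifih1, or MDA5, the sensor of long double-stranded RNA, had 978 counts in the double null, 1218 in Trp53-/-, 426 in Zfp871-/- and 263 in WT, at an adjusted p of 0.061. Ddx58, or RIG-I, the sensor of 5′-triphosphate RNA, had 2864 counts in the double null, 2928 in Trp53-/-, 1760 in Zfp871-/- and 1437 in WT, the smallest difference of the 4 sensors at a log2 change of 0.61 ± 0.142 (adjusted p = 0.0742, edgeR). The libraries without Trp53 did not overlap those with it for either gene, but the ratios differed between backgrounds, at 0.89 in the double null against Zfp871-/- and 1.99 in Trp53-/- against WT for Ifih1.

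All 3 transcription factors rose. Irf7, which drives type I interferon genes and is itself induced by interferon, had 850 counts in the double null, 1314 in Trp53-/-, 163 in Zfp871-/- and 142 in WT, and a log2 rise of 2.54 ± 0.269 (adjusted p = 0.0229, edgeR). Stat2 and Irf9, parts of the complex that binds the response element, moved less. Stat2 rose by 1.20 ± 0.149 and Irf9 by 1.07 ± 0.107. Irf9 had 1707 counts in the double null, 1724 in Trp53-/-, 665 in Zfp871-/- and 703 in WT, so its 2 ratios of Trp53 loss were nearly equal, at 1.06 in the double null against Zfp871-/- and 1.08 in Trp53-/- against WT.

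Active enzymes of the OAS family make 2′-5′ oligoadenylates, which activate RNase L to cut RNA. The family had the largest median change of the role groups, at 3.05 on the log2 scale. Oas2, Oas3 and Oasl1 were among the members that passed the filter only through the libraries without Trp53. Of the 5 members, 4 rose. Oas2 had 151 counts in the double null, 282 in Trp53-/-, 17 in Zfp871-/- and 10 in WT, and rose by 3.67 ± 0.522 (adjusted p = 0.0338, edgeR). Oas3 had 164 counts in the double null, 232 in Trp53-/-, 18 in Zfp871-/- and 3 in WT. Its WT level was the lowest count of any member in any library, and the 2 ratios differed widely, at 2.77 (95% interval 2.18 to 3.68) in the double null against Zfp871-/- and 5.39 (4.50 to 8.35) in Trp53-/- against WT. At a log2 change of 4.04 ± 0.766 it had the largest estimate of all members but was not called (adjusted p = 0.0514, edgeR). Oas1a, the other family member with a repeat shown above, had 541 counts in the double null, 733 in Trp53-/-, 124 in Zfp871-/- and 67 in WT and the smallest rise of the family, 2.51 ± 0.393. The OAS-like genes Oasl2 and Oasl1 rose by 2.86 ± 0.320 and 3.05 ± 0.434. Reads of Oas1a are uncertain, since 57.6% of the 50-base words of its transcripts also occur in transcripts of other genes, mostly Oas1g and Oas1b.

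IFIT proteins bind viral RNA and hinder its translation. Of the 4 IFIT genes, 3 rose. Ifit1, with the largest rise, had 1613 counts in the double null, 1803 in Trp53-/-, 350 in Zfp871-/- and 296 in WT, and a log2 rise of 2.15 ± 0.169 (adjusted p = 0.0148, edgeR). Ifit3 had 654 counts in the double null, 1005 in Trp53-/-, 154 in Zfp871-/- and 181 in WT, and rose by 2.03 ± 0.187. Ifit3b, its near copy, had 153 counts in the double null, 301 in Trp53-/-, 44 in Zfp871-/- and 72 in WT, and rose by 1.68 ± 0.257. The pair shares 51.2% of the 50-base words of Ifit3 and 45.0% of those of Ifit3b with other genes, largely each other, so the split of reads between them is uncertain. Ifit2 had 851 counts in the double null, 1000 in Trp53-/-, 452 in Zfp871-/- and 503 in WT, a smaller gap than its 3 neighbours on chromosome 19, and was not called at 0.70 ± 0.131 (adjusted p = 0.0506, edgeR).

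Isg15 is joined to target proteins by the activating enzyme Uba7 and, in the mouse, the ligase Herc6. Isg15 had 2921 counts in the double null, 3718 in Trp53-/-, 387 in Zfp871-/- and 352 in WT, and rose by 2.90 ± 0.183 (adjusted p = 0.0102, edgeR). Herc6 had 193 counts in the double null, 229 in Trp53-/-, 64 in Zfp871-/- and 74 in WT and rose by 1.35 ± 0.241, with 13.7% of its exon bases shared with another gene. Uba7 was not called (adjusted p = 0.0737, edgeR), with 355 counts in the double null, 640 in Trp53-/-, 144 in Zfp871-/- and 101 in WT. Its libraries did not overlap, but the log2 ratio was 0.99 in the double null against Zfp871-/- and 2.43 in Trp53-/- against WT.

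The PARP enzymes attach ADP-ribose to proteins, and Dtx3l is the ubiquitin ligase that pairs with Parp9. Parp14 rose by 1.95 ± 0.223 (adjusted p = 0.0254, edgeR) with 1294 counts in the double null, 1652 in Trp53-/-, 352 in Zfp871-/- and 284 in WT, and Parp12 rose by 1.22 ± 0.121. Parp9 and Dtx3l were not called, at adjusted p-values of 0.0515 and 0.07. Dtx3l, with the smallest change of the 4, had 1058 counts in the double null, 1102 in Trp53-/-, 556 in Zfp871-/- and 353 in WT. The genes of this pair start head to head on chromosome 16 on opposite strands. They share 9.4% of the exon bases of Parp9 and 8.0% of those of Dtx3l, and the strand setting of the counting is not stated, so those reads cannot be assigned.

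Of the 8 direct effectors, 6 rose. Rsad2, or viperin, which makes a chain-terminating nucleotide, had 187 counts in the double null, 256 in Trp53-/-, 20 in Zfp871-/- and 18 in WT, and rose by 3.26 ± 0.332 (adjusted p = 0.022, edgeR). Its neighbour Cmpk2, a nucleotide kinase, had 184 counts in the double null, 176 in Trp53-/-, 10 in Zfp871-/- and 34 in WT. Cmpk2 was among 4 members whose ratio was larger without Zfp871, at 3.68 in the double null against Zfp871-/- and 2.10 in Trp53-/- against WT, and it rose by 2.90 ± 0.514 (adjusted p = 0.0459, edgeR). Bst2 had 4041 counts in the double null, 4952 in Trp53-/-, 1021 in Zfp871-/- and 1155 in WT, and a rise of 1.79 ± 0.117. The GTPases Mx2 and Mx1 rose by 2.58 ± 0.325 and 2.43 ± 0.404, Mx1 on only 41 counts in the double null, 77 in Trp53-/-, 7 in Zfp871-/- and 11 in WT. Most inbred strains, C57BL/6 among them, carry a defective Mx1. Samd9l, a restriction factor of poxviruses, rose by 1.01 ± 0.136.

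Eif2ak2, or PKR, the kinase that stops translation on double-stranded RNA, was abundant with and without Trp53, at 2639 counts in the double null, 2681 in Trp53-/-, 1616 in Zfp871-/- and 1480 in WT, and was not called at 0.53 ± 0.116 (adjusted p = 0.0669, edgeR). Isg20, an exonuclease that degrades viral RNA, stood against the other effectors. It had 83 counts in the double null, 107 in Trp53-/-, 68 in Zfp871-/- and 132 in WT, so that WT was the highest library and the groups overlapped. Its log2 ratio was -0.01 (-0.49 to 0.47) in the double null against Zfp871-/- and -0.51 (-0.90 to -0.14) in Trp53-/- against WT, and it was not called (adjusted p = 0.577, edgeR).

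Of the 7 other interferon-induced genes, 4 rose. Xaf1, which promotes cell death by opposing the inhibitor XIAP, had 1870 counts in the double null, 2305 in Trp53-/-, 187 in Zfp871-/- and 190 in WT. Its rise of 3.20 ± 0.152 had the smallest adjusted p of all members (0.00861, edgeR), and its ratios were close, at 3.01 in the double null against Zfp871-/- and 3.38 in Trp53-/- against WT. Rtp4, a binder of viral RNA, had 892 counts in the double null, 967 in Trp53-/-, 132 in Zfp871-/- and 187 in WT, and Ifi44 had 534 in the double null, 834 in Trp53-/-, 123 in Zfp871-/- and 184 in WT. Both stood lowest in Zfp871-/-, and they rose by 2.30 ± 0.160 and 1.89 ± 0.158, with 13.9% of the exon bases of Rtp4 shared with another gene. Trim30a, a restraint on Toll-like receptor signalling, rose by 2.37 ± 0.409. Sp100, a component of PML nuclear bodies, had 370 counts in the double null, 485 in Trp53-/-, 80 in Zfp871-/- and 25 in WT. Its count in Zfp871-/- was well above that in WT, its ratio was 1.88 in the double null against Zfp871-/- and 3.97 in Trp53-/- against WT, and it was not called at 2.88 ± 0.576 (adjusted p = 0.057, edgeR). Ifi35 was not called either (adjusted p = 0.0566), and 16.8% of its exon bases overlap another gene on the opposite strand.

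Ifi27, a protein placed in mitochondria in human cells, was the other member with a negative log2 change. It had 748 counts in the double null, 745 in Trp53-/-, 756 in Zfp871-/- and 1056 in WT. After normalization both libraries without Trp53 lay below both with it, at 32.3 CPM in the double null and 34.2 in Trp53-/-, against 40.2 in Zfp871-/- and 56.1 in WT. Ifi27 was not called, at -0.52 ± 0.151 (adjusted p = 0.109, edgeR). By FPKM it was the most abundant member after Bst2 in WT, and it was one of 2 members, with Isg20, that WT held at its highest of the 4 libraries.

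Members with a low level in the presence of Trp53 tended to have the larger ratios. FPKM in WT and the log2 ratio of the double null against Zfp871-/-, which share no library, had a Spearman correlation of -0.58 across the 38 members. FPKM in Zfp871-/- and the log2 ratio of Trp53-/- against WT also gave -0.58. These values describe genes measured in the same libraries, and low counts widen the spread of a ratio. At the low end, Oas2, Oas3, Oasl1 and Mx1 passed the filter only through the libraries without Trp53. No correlation without them or over all genes is given. Isg15, Bst2 and Xaf1 lay above the trend, each with a high ratio for its level, while Isg20 and Ifi27 lay below it.

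**Figure D3:**
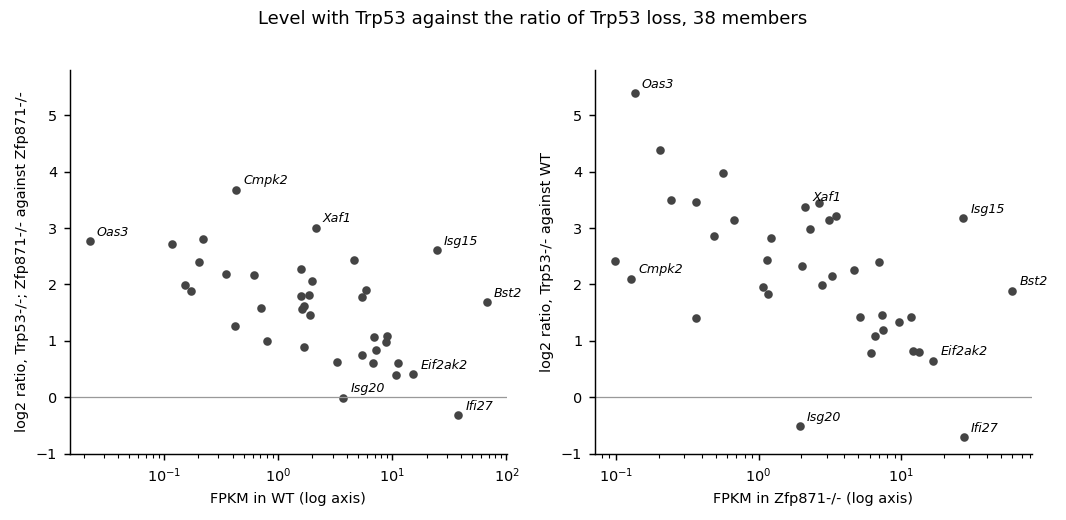
FPKM with Trp53 present (log axis) against the log2 ratio of Trp53 loss in the pair that does not use that library, 1 point a member. Left, WT level against the double null over Zfp871-/-. Right, Zfp871-/- level against Trp53-/- over WT. Both panels fall from Oas3 at low level to Eif2ak2 and Ifi27 at high level, with Spearman correlations of -0.58.

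The second question was how the members differed with loss of Zfp871. By the additive edgeR test 0 members rose and 0 fell, against 0% of all genes in each direction, and the smallest adjusted p over all 13306 genes was 0.849. The targeted gene Zfp871 was itself not called, at a log2 change of -1.23 ± 0.171 (adjusted p = 0.874, edgeR). The absence of calls therefore cannot decide whether members changed with Zfp871 loss. At an unadjusted p under 0.05 there were 2 members, and 510 of all genes (3.83%). DESeq2 called 3 genes up and 4 down of all genes and limma-voom 0, with 0 members by either. The pairs of libraries are therefore given by their sizes. In the double null against Trp53-/-, 0 members were 2-fold or more higher (0.819% of all genes) and 1 was lower by as much (1.01%). In Zfp871-/- against WT, 2 members were 2-fold or more higher (3.52%) and 1 was lower by as much (3.98%).

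Against Trp53-/-, the double null had lower values for all 38 members, with a median log2 ratio of -0.40, whereas 49.1% of all genes tested were lower. The counting interval lay below 0 for 32 members, against 17.5% of all genes. The 3 lowest were Ifit3b at -1.05, Oas2 at -0.98 and Mx1 at -0.96. The 3 highest were Cmpk2 at -0.02, Stat2 at -0.03 and Ifi27 at -0.08. Macrophage markers moved with this as well, 17 of the 19 having a negative ratio in this pair, at a median of -0.29, and their part in the result was not tested.

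In Zfp871-/- against WT the members went both ways, with 25 higher (49.5% of all genes), 13 lower (50.5%) and a median of 0.14. Intervals lay above 0 for 15 members (27.7% of all genes) and below 0 for 7 (27.3%). Of the 19 macrophage markers 13 were higher, at a median of 0.27, and all 3 epithelial markers that passed the filter were higher, at a median of 2.83. Of these 3, Krt8 had 40 counts in Zfp871-/- and 1 in WT, Krt18 had 75 and 9, and Krt19 had 270 and 113. The part of either kind of marker in the members' ratios was not tested. The 3 highest ratios were those of Oas3 at 2.04, on 18 counts in Zfp871-/- and 3 in WT, Sp100 at 1.61, on 80 in Zfp871-/- and 25 in WT, and Trim30a at 0.88, on 242 in Zfp871-/- and 131 in WT. The 3 lowest were those of Cmpk2 at -1.60, on 10 counts in Zfp871-/- and 34 in WT, Isg20 at -0.94, on 68 in Zfp871-/- and 132 in WT, and Ifit3b at -0.69, on 44 in Zfp871-/- and 72 in WT. All 5 OAS genes, all 4 sensors and all 4 PARP group genes were on the higher side, and 3 of the 4 IFIT genes on the lower side. These are signs only, and the counting intervals of Oas2, Oasl1, Zbp1, Parp12, Ifit2 and Ifit3 included 0. The other 10 on the lower side ran from Ifi44 at -0.57, Mx1 at -0.54, Rtp4 at -0.49 and Ifi27 at -0.48 to Ifit3 at -0.23, Herc6 at -0.20, Bst2 at -0.18, Ifit2 at -0.15, Irf9 at -0.08 and Xaf1 at -0.02.

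A negative ratio in the double null against Trp53-/- and a positive one in Zfp871-/- against WT, with both intervals off 0, was found for 14 members, or 36.8% of the 38, against 686 genes or 5.16% of all tested. Markers showed this turn as well, at 6 of 9 fibroblast markers, 3 of 19 macrophage markers and 2 of 3 epithelial markers that passed the filter. The fibroblast gene Dcn had a ratio of -0.97 in the double null against Trp53-/- and 1.27 in Zfp871-/- against WT. The keratin gene Krt18 had one of -1.58 and 2.83 in these pairs, on 9 counts in WT. Krt19 did not turn, at 0.47 and 1.25. The part of the cell mixture in the turn was not tested. The opposite combination held for 0 members. Ifit3b, Isg20, Bst2, Rtp4 and Ifi44 were lower without Zfp871 in both pairs with both intervals off 0. The ratio of the double null to Trp53-/- was below that of Zfp871-/- to WT for 34 members, with a median difference of -0.48 on the log2 scale (all genes 0.00). This is the same arithmetic as the smaller ratios of Trp53 loss without Zfp871, so it is not a second result. It has no test, since 4 libraries leave no error for an interaction.

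**Figure D4:**
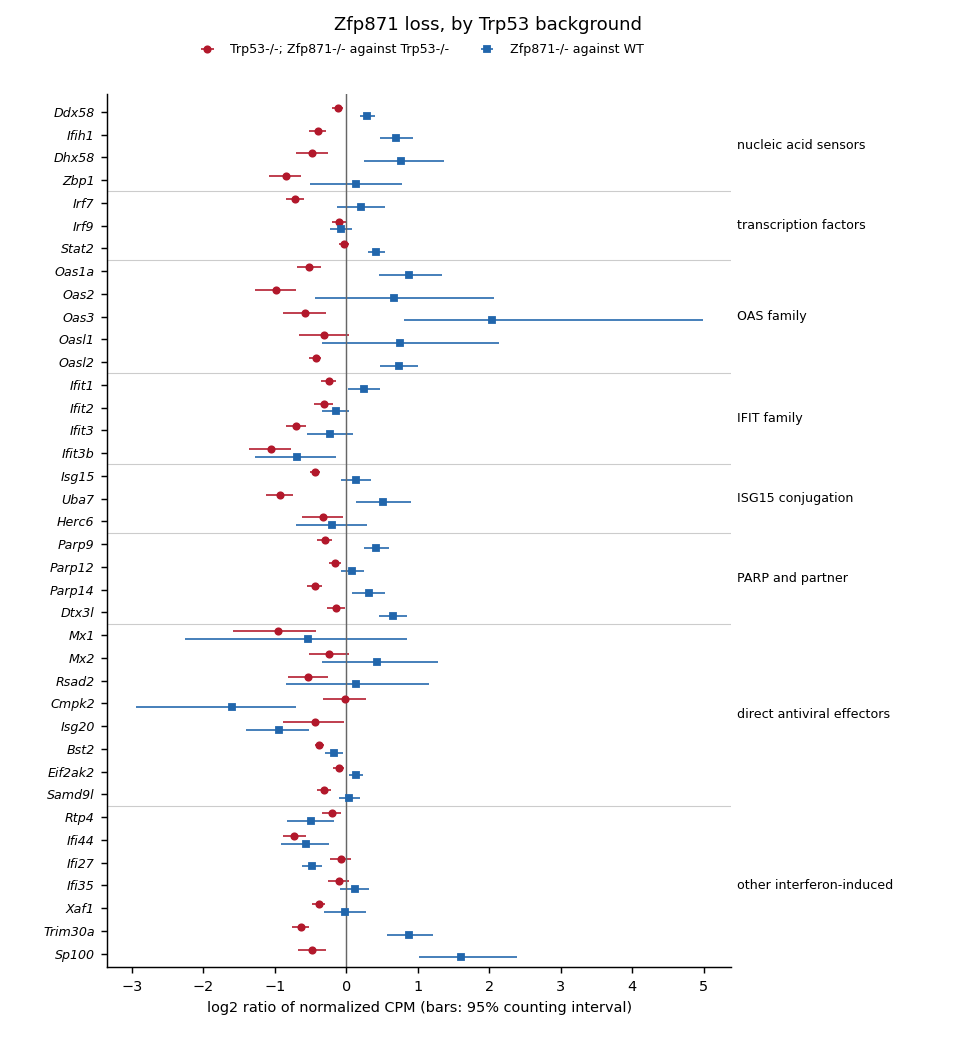
Log2 ratio of normalized CPM for Zfp871 loss in each member, in the double null against Trp53-/- (circles) and in Zfp871-/- against WT (squares), with 95% counting intervals. All circles lie left of 0, from -1.05 to -0.02, while the squares run from -1.60 for Cmpk2 to 2.04 for Oas3.

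Transcripts of the interferons themselves were at or near 0 counts. Of 21 interferon genes, 19 had 0 counts in all 4 libraries, among them Ifnb1 and Ifng. A count of 0 allows up to 0.134 CPM in the deepest library and 0.155 in the shallowest. Ifnz, a zeta interferon, had 5 counts in the double null, 2 in Trp53-/-, 0 in Zfp871-/- and 2 in WT, and Ifnab had 1 count, in the double null. The 50-base words of Ifnz occur in other genes to 76.9%, those of Ifna1, Ifna6 and Ifna5 to 67.4%, 55.9% and 52.2%, and those of the other alpha genes listed to between 6.45% and 41.2%, so such reads may not have been assigned to any gene.

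Of the interferon receptor genes, 0 of the 5 that passed the filter were called. Ifnar1, the first chain of the type I receptor, had 1703 counts in the double null, 1653 in Trp53-/-, 1540 in Zfp871-/- and 1717 in WT, and a log2 change with Trp53 loss of -0.21 ± 0.103 (adjusted p = 0.251, edgeR). Ifnar2, the second chain, had 713 counts in the double null, 726 in Trp53-/-, 501 in Zfp871-/- and 541 in WT and a change of 0.21 ± 0.127. Log2 changes of Ifngr1, Ifngr2 and Il10rb, which serve the type II and type III interferons, were 0.21, 0.13 and 0.27. Ifnlr1, the lambda receptor, did not pass the filter with 1 count in the double null, 2 in Trp53-/-, 7 in Zfp871-/- and 9 in WT. A p above the threshold does not show that these levels were equal.

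Of the JAK-STAT and IRF genes downstream of the receptors, Irf8 rose by 3.72 ± 0.392 and Irf5 by 1.91 ± 0.316, both factors with high expression in macrophages. Among 11 sensing adaptors, receptors and kinases that passed the filter, 3 rose and 1 fell. Tlr7, which detects single-stranded RNA in endosomes, rose by 4.07 ± 0.412, the DNA sensor Aim2 by 3.63 ± 0.552 and its relative Ifi204 by 2.51 ± 0.426. Some of these rises rest on few counts with Trp53. Irf8 had 8 counts in Zfp871-/- and 7 in WT, Tlr7 had 11 and 9, and Aim2 had 2 and 7. Ticam1, the adaptor of Tlr3, fell by 0.96 on the log2 scale (SE 0.165, adjusted p = 0.0439, edgeR).

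Of 11 genes that restrain the response, 2 rose. Usp18, which removes Isg15 from proteins and blocks Ifnar2, had 1155 counts in the double null, 1196 in Trp53-/-, 184 in Zfp871-/- and 129 in WT, and rose by 2.67 ± 0.214. The phosphatase Ptpn6, abundant in blood cells, rose by 3.22 ± 0.250 (adjusted p = 0.0147, edgeR). Trex1 was listed at 0 in every library, and 100% of its exon bases are shared with Atrip.

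**Figure D5:**
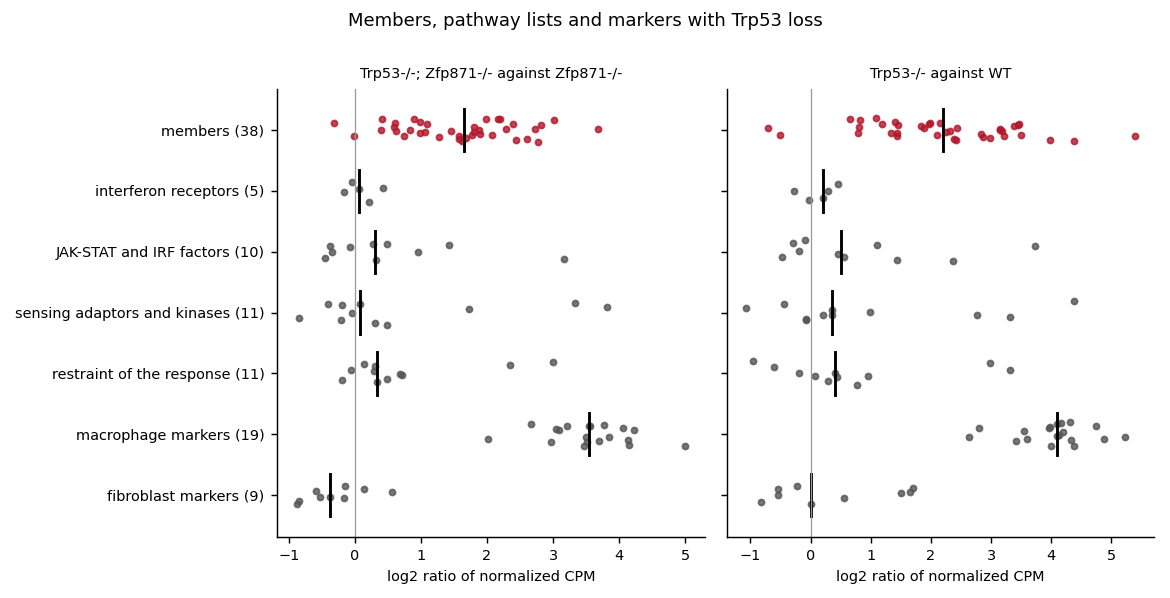
Log2 ratio of normalized CPM for Trp53 loss in the genes of each list that passed the filter, 1 point a gene, with the median as a bar and the number of genes in brackets. Left, the double null against Zfp871-/-. Right, Trp53-/- against WT. The members have medians of 1.65 on the left and 2.20 on the right, the interferon receptors of 0.07 and 0.21, and the macrophage markers of 3.54 and 4.10.

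The macrophage markers had larger ratios than the median member. Their lowest log2 ratio was 2.02 in the double null against Zfp871-/- and 2.64 in Trp53-/- against WT. Csf1r, the receptor that macrophages need to survive, had 2437 counts in the double null, 2698 in Trp53-/-, 230 in Zfp871-/- and 192 in WT. In these values the libraries split as they did for the members, high without Trp53 and low with it. In the double null against Trp53-/-, 17 of the 19 markers had a negative log2 ratio and 2 a positive one, Cd68 at 0.14 and Tyrobp at 0.05. Fibroblast markers went both ways, with medians of -0.38 in the double null against Zfp871-/- and 0.00 in Trp53-/- against WT. Of the 9, 1 was called, Col3a1, which fell. Their log2 ratios ran from -0.88 to 0.56 in the double null against Zfp871-/- and from -0.82 to 1.71 in Trp53-/- against WT. In Trp53-/- against WT, 3 were 2-fold or more higher, Thy1, Dcn and Pdgfra (8.9% of all genes). None was lower by as much (8.88%). How much of the members' RNA came from each kind of cell was not tested.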

How the data were processed

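The labels gave the genotype of each of the 4 libraries. The authors deposited raw counts per Ensembl gene. Per the submitters' processing notes, fastp, STAR, featureCounts and the build mm10 were used, with no versions or strand setting stated. A second deposited table per library was read as FPKM, since count over value gave 1 length for each gene up to a library factor, and served only to compare levels between genes.

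Genes with a CPM of at least 1 in at least 2 libraries were kept (13306). The main test was edgeR 4.0.16 (R 4.3.3), quasi-likelihood, TMM factors, an additive model of both genotypes and Benjamini-Hochberg adjustment over all kept genes. Libraries served as replicates across the other genotype, with 1 residual degree of freedom, so p-values do not measure spread between cultures. The quasi-likelihood fit also shares information on the error between genes. A ± is a standard error worked back from the test, as the absolute log2 change over the square root of the edgeR F statistic. Pairs of libraries were compared as log2 ratios (prior count 2) with exact Clopper-Pearson 95% intervals. Intervals, and the limit of 3 counts behind a count of 0, cover counting error only.

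Alternatives were DESeq2 1.42.0, limma 3.58.1 (voom), other scalings and filters, and leaving out each library. Symbols, exons and transcripts came from GENCODE M21 and promoters from RefSeq (GRCm38.p6). Shared words of 50 bases between transcripts marked near copies.

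The members and lists were chosen with earlier results of these data known. By rule, counts were given for the members with the largest and smallest change of each role group and for those against the majority. The 3 highest and lowest ratios of Zfp871 loss were given as well. Called pathway genes were named by rule, not all of them with counts. Mb21d1, on the adaptor list, was not matched. 1 gene of the pathway lists is not reported here.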

Additional observations from a re-analysis of the deposited data

Results flagged for a closer look

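The ratios of Zfp871 loss pointed in opposite directions in 14 members, negative in the double null against Trp53-/- and positive in Zfp871-/- against WT, with each counting interval off 0. The difference between the 2 ratios was not tested, because 1 library a genotype leaves no error for it, and the intervals hold counting error only. Each gene is given with its log2 ratio in the double null against Trp53-/- and then in Zfp871-/- against WT. The sensors were Ddx58 (-0.12 and 0.29), Ifih1 (-0.40 and 0.69) and Dhx58 (-0.48 and 0.77). In the OAS and IFIT families there were Oas1a (-0.52 and 0.87), Oas3 (-0.58 and 2.04), Oasl2 (-0.43 and 0.73) and Ifit1 (-0.25 and 0.24). In ISG15 conjugation and the PARP group there were Uba7 (-0.93 and 0.51), Parp9 (-0.30 and 0.42), Parp14 (-0.44 and 0.31) and Dtx3l (-0.15 and 0.65). The others were Eif2ak2 (-0.11 and 0.13), Trim30a (-0.64 and 0.88) and Sp100 (-0.48 and 1.61). Oas3 and Sp100 combine the largest ratios in Zfp871-/- against WT with WT counts of 3 and 25.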

How the results depend on the processing

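The count of 26 members that rose with Trp53 loss moved to 31 with library totals, 29 with DESeq2 size factors, 36 without a filter, 19 of 33 tested at a mean CPM of at least 5, 31 with DESeq2, 30 with limma-voom and 32 with Trp53 alone in the model. When a library was left out, it ranged from 0 to 36: 0 without Trp53-/-, 3 without the double null and 36 without Zfp871-/- or without WT, each in a fit of Trp53 alone in which 1 genotype has a lone library assumed to vary like the others. The count of members that fell was 0 in all these settings except 1 (Ifi27) without Zfp871-/-, a range of 0 to 1. Over all genes the main fit called 667 up and 574 down, leaving out a library gave between 2 and 2461 up and between 6 and 2333 down, the filter at a mean CPM of 5 gave 307 and 302, and no filter gave 1113 and 1191. With library totals 67.2% of the calls were up, against 53.7%, as the median of all genes shifted by 0.14 in the double null against Zfp871-/- and by 0.09 in Trp53-/- against WT; the members' median in the first pair was then 1.79. At a 1.5-fold threshold the double null had 9 members lower against Trp53-/-, 10 were higher and 3 lower in Zfp871-/- than in WT, 2 were lower in the double null against WT and 1 in Trp53-/- against WT. The shares of all genes at 1.5-fold were not computed, so these counts have no background to be read against. No value called in either fit changed sign. Among values not called, 11 changes with Zfp871 loss and 1 with Trp53 loss (Isg20) did. Leaving out Trp53-/- lost 23 called members and leaving out the double null 20. Under the other alternatives, called members lost were Dhx58, Herc6, Oas1a and Trim30a at the mean CPM of 5, Mx1 with DESeq2 (adjusted p = 0.0914) and Ifit3b with Trp53 alone (0.0763). Oas3 and Parp9 were gained in most of them. No paired analysis was possible because each genotype has 1 library and the labels give no replicate numbers. Among the members, depth limits Oas3, Mx1, Cmpk2, Oasl1, Oas2 and Rsad2, with under 20 counts in at least 1 library.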
